A study of Mus musculus with 15 samples.

Results

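The open chromatin of pancreatic islets lacking Arid1a in their β cells was compared between day 6 after partial pancreatectomy (PPx, removal of part of the pancreas) and before it. The regions are all peaks that the authors listed for this pair of times, with 1 entry kept for each position. There were 12767 of them, out of 41774 peak listings in the 4 comparisons of the study. The knockout (βKO) mice were Arid1aFl/Fl; MIP-rtTA; TRE-Cre, with 4 libraries after PPx and 3 libraries before PPx. The control mice were Arid1aFl/Fl; MIP-rtTA, with 4 libraries after PPx and 4 libraries before PPx. All were males of 3 months and all received doxycycline in the drinking water at 1 g/L for 2 weeks. PPx was done 1 week after doxycycline was withdrawn, and the labels give no sham operation for the mice before PPx. In this system an insulin promoter makes the activator rtTA, which drives Cre only with doxycycline. The other cells of the islet therefore keep Arid1a, and the libraries were made from whole islets.

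Arid1a is a large DNA-binding subunit of the canonical BAF form of SWI/SNF, a remodelling complex that uses ATP to slide and evict nucleosomes, chiefly at enhancers and promoters. ATAC-seq reads the outcome, because the Tn5 transposase cuts where nucleosomes leave DNA exposed. β cells of adult mice divide rarely, and removal of part of the pancreas is a classical way to make the remaining ones enter the cell cycle. Promoters of housekeeping genes are usually open in all cells, while distal peaks differ more between cell types.

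The level of a peak is given here as the authors' log2 concentration for a group of libraries, a log2 scale of normalised reads in the peak. The change is the level after PPx minus the level before PPx. The deposited tables hold 1 level per group and none per library, so no SD is given and the depth of each library is unknown. The only replicate-based error is in the authors' p-values, from which a standard error (SE) of each change was derived. A peak is called opened or closed when its false discovery rate (FDR) in the authors' deposited table was under 0.05 and its level was higher or lower after PPx. In bulk islets a change in the share of a cell type and a change of signal per cell cannot be told apart.

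The targeted gene had 1 peak in the βKO comparison of times, in exon 9 of 20 of Arid1a at chr4:133692981-133693581. Its level was 4.04 in βKO islets after PPx, against 5.26 before PPx, an SE of 0.47 beside a change of −1.22. It was not closed, the FDR being 0.0584 per the authors' deposited table. After PPx the same region stood at 4.04 in βKO islets and 0.40 in control islets, and it was called in 3 and 0 of the 4 libraries of each genotype in the authors' deposited table. Before PPx it stood at 5.49 in βKO islets and 1.21 in control islets, called in 3 and 0 libraries in the authors' deposited table. The peak thus marks the βKO libraries at both times. Whether the exon lies in the floxed segment is not given in the sources used here, so whether the peak reads the deletion was not tested.

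Promoters carried most of the opened peaks, and 5 of them are shown to let the DNA behind the values be seen. They were taken from the genes with the smallest FDR and from the replication and mitosis lists, where a single gene starts inside the peak. Each line holds the 250 bases before the RefSeq transcription start on GRCm38.p6, read in the direction of the gene. Capitals mark matches to GGGCGG (the SP/KLF box), CCAAT (the CCAAT box), CCGGAAG (the ETS site) and AAGATGGC (the YY1 site) on either strand.
Mrps14 (chr1:160194965-160195214, plus strand): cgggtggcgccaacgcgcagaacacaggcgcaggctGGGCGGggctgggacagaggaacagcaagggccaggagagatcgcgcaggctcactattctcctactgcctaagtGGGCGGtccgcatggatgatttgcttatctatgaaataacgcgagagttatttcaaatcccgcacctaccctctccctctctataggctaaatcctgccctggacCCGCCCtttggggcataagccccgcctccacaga
Tubb4b (chr2:25224703-25224952, minus strand): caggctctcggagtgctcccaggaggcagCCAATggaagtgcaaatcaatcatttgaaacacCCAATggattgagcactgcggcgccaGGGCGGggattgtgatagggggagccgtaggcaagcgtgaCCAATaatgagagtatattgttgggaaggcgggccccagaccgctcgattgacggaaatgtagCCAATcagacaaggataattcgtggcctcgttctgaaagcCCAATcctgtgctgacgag
Spc25 (chr2:69206214-69206463, minus strand): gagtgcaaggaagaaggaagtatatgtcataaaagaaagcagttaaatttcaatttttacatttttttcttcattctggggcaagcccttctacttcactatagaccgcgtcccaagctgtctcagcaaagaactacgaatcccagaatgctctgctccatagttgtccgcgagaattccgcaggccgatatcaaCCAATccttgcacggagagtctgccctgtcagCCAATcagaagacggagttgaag
Rfc4 (chr16:23127731-23127980, minus strand): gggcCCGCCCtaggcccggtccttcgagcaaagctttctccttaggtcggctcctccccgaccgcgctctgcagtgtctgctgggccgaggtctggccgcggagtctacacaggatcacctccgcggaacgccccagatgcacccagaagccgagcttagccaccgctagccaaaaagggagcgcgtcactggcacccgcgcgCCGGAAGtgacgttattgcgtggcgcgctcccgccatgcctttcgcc
Mcm10 (chr2:5012792-5013041, minus strand): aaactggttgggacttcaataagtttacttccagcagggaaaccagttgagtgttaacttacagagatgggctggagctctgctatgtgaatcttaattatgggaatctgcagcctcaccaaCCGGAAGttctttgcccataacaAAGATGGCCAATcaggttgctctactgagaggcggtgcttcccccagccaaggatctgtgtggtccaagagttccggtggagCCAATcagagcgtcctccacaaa
These promoters share no single element. Tubb4b holds 5 CCAAT boxes and 1 SP/KLF box, Spc25 holds 2 CCAAT boxes, and Mrps14 holds 3 SP/KLF boxes. Mcm10 holds an ETS site, 2 CCAAT boxes and a YY1 site that overlaps 1 of them. Their GC content was 45.2% in Spc25, 49.2% in Mcm10, 54.4% in Tubb4b, 58.8% in Mrps14 and 67.2% in Rfc4.

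At these promoters the level was higher after PPx in βKO islets. Mrps14, a subunit of the mitochondrial ribosome, was at 5.46 after PPx, against 3.65 before PPx, a change of 1.81 ± 0.39 (SE). Tubb4b, a β-tubulin, was at 5.88 after PPx, against 4.39 before PPx. Spc25, a kinetochore protein of the NDC80 complex, was at 5.12 after PPx, against 3.32 before PPx. All were called in all 4 libraries after PPx and in at least 2 of the 3 before PPx in the authors' deposited table. Rfc4, part of the clamp loader of DNA replication, differed from them in being called in 4 libraries after PPx and 0 before PPx in the authors' deposited table. It was at 4.17 after PPx, against 2.14 before PPx. Mcm10, a factor that starts replication forks, was at 4.66 after PPx, against 3.36 before PPx. In the authors' deposited table the FDR was 0.0077 at Mrps14, 0.0192 at Tubb4b and Spc25, 0.0282 at Rfc4 and 0.0433 at Mcm10.

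Nearly all βKO peaks stood higher after PPx. The median level was 4.08 after PPx, against 3.27 before PPx. The change was above 0 at 97.1% of peaks, below 0 at 359 and exactly 0 at 15. Its median was 0.83 on the log2 scale, or 1.78-fold, with quartiles of 0.58 and 1.08 and a range of −1.66 to 3.29. Per the authors' deposited table, a total of 950 peaks opened, 7.44% of those listed, and 0% closed. At an unadjusted p under 0.05 that table, whose test per the processing notes came from DiffBind, held 5027 higher and 3 lower peaks. The opened peaks belonged to 932 of 9736 genes, or 9.57%, and 18 genes had a pair of them. Their changes ran between 0.93 and 3.13, with a median of 1.36, so none lay below the general median. The median SE of a single change was 0.493, so a change of the median size was not distinguishable from 0 at most single peaks.

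**Figure D1:**
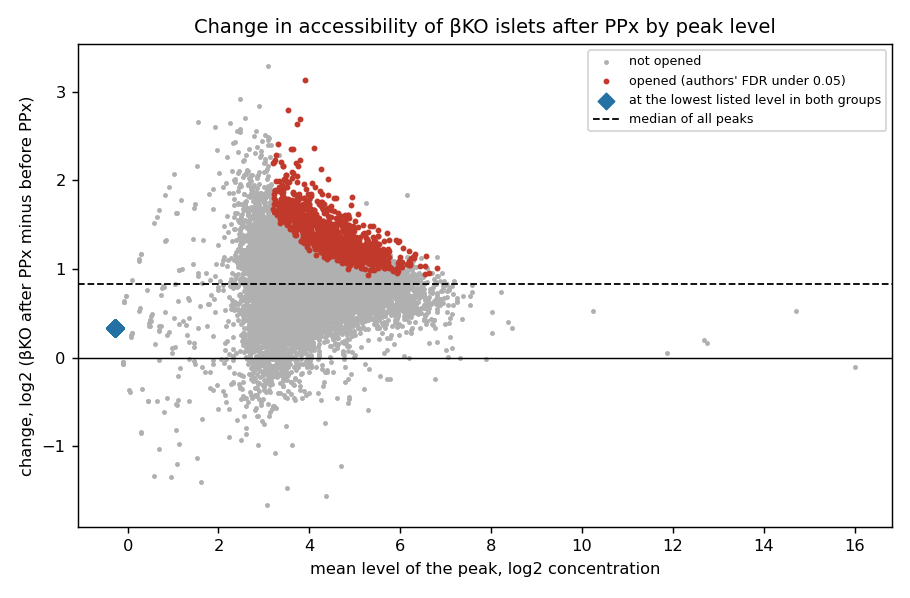
Change of each βKO peak after PPx (y axis, log2, after minus before PPx) against its mean level (x axis, log2 concentration), 1 point per peak. The 950 opened peaks (red) lie above the median of 0.83 (dashed line), and the 162 peaks at the lowest listed level in both groups (blue diamond) share a change of 0.34.

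Part of the general gain moves with the scale of the tables. The lowest listed level was −0.13 after PPx, against −0.47 before PPx. At these lowest levels in both groups stood 162 peaks, 64 of them among the 75 peaks of the Y chromosome. Each had a change of 0.34 and a p of 0.82 in the authors' deposited table. Of the 162, 144 were called in at least 2 libraries after PPx, so a level at this floor does not mean closed chromatin. A value that all of them share measures no single peak. The authors also list the βKO libraries before PPx in their comparison of genotypes, where 157 positions are shared. There the same group was 0.22 to 0.23 higher, while the βKO level after PPx was identical at 2762 shared positions. On that scale the median change would be 0.60, and relative to the change at the lowest level it would be 0.49. The general gain is therefore a range of values, and how reads were normalised is not given in the sources used here. At the 11 peaks with a mean level of 8 or more, 6 of them at predicted genes, the median change was 0.33, between −0.10 and 0.74.

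Set against the table's own median, no peak was called. In an approximate normal test of each change minus 0.83, with Benjamini-Hochberg adjustment over all peaks, 0 peaks were higher and 0 lower. The smallest adjusted p was 0.153, at the Arid1a exon. At an unadjusted p under 0.05 there were 95 higher and 122 lower peaks in this test. Together they are a smaller share of all peaks than the 0.05 that this threshold passes when no peak differs. The derived errors were thus wide for centred changes. The test was conservative, and a lack of calls does not show that the changes were equal. The opened peaks were those in which a gain above the median met a small error, outside the peaks given an FDR of 1. Peaks whose FDR the authors' deposited table gives as 1 numbered 2669 and were weak, with a median level of 2.92 against 4.03 at the others. Of these, 532 had an unadjusted p under 0.05 in the authors' deposited table. The largest change of all, 3.29 at an intron of the adhesion gene Negr1, had a p of 2.79e-05 beside that FDR, per the authors' deposited table. With one Benjamini-Hochberg adjustment over all listed peaks, 573 in place of 950 would count as opened.

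The number of libraries with a called peak differed between the times. Of the βKO peaks, 12046 were called in at least 2 libraries after PPx, against 5577 in at least 2 libraries before PPx, per the authors' deposited table. All 7 libraries held 3218 of the peaks. A further 250 peaks were called in all 4 libraries after PPx and in 0 before PPx, against 3 peaks called in 0 libraries after PPx and in all 3 before PPx. Every listed peak was called in at least 2 of the 7 libraries. The 4067 peaks called in 0 libraries before PPx were thus listed only through libraries after PPx, against 34 peaks the other way. The counts above, and the change at such peaks, are partly set by this entry and by the 4 libraries against 3. Such peaks include the named opened peaks at Rfc4, Nedd8, Csnk1a1, Psmd1, Dyrk3, Mrps36, Slc30a8, Bmpr2, Arid1b, Snrpg, Srsf5 and Csf1r. They also include the Creb1 peak in intron 8 and 1 of the opened Btg2 peaks. Peaks called in 0 libraries before PPx had a median change of 1.02. The median was 0.74, 0.75 and 0.78 at peaks called in 1, 2 and 3 libraries before PPx. A gain was therefore present at peaks already found in every library before PPx. Among peaks called in at least 2 libraries of each group, 516 opened.

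Opening was most frequent at promoters. Peaks within 1 kb of a start in the authors' annotation, which gives all classes here, numbered 7656, and 760 of them opened, or 9.93%. Distal intergenic peaks opened in 91 of 2866 cases, or 3.18%, and introns other than the first in 52 of 1118, or 4.65%. The first introns opened at 17 of 401 peaks, exons at 5 of 191, and 3′ UTRs at 1 of 78. None of 14 peaks in 5′ UTRs opened. The size of the change varied less between the classes than their calls. Its median was 0.86 at promoters within 1 kb, 0.80 in first introns, 0.82 in other introns, 0.76 in exons, 0.72 in 3′ UTRs and 0.74 at distal peaks. It was 0.81 at promoters of 1 to 2 kb, 0.83 at those of 2 to 3 kb and 0.84 in 5′ UTRs. Peaks downstream of genes had the largest median, 0.94, over 66 peaks, of which 3 opened. The strength of the peaks moved with this difference, since the median mean level was 4.10 at promoters within 1 kb and 3.40 at distal peaks. None of the 1277 peaks in each of the 2 weakest of 10 bins of level opened. Weak peaks were often given an FDR of 1 whatever their p, and such peaks could not open. These 2 bins held 399 and 469 of the promoter peaks within 1 kb, and 544 and 436 of the distal peaks. The shares over a whole class therefore depend in part on how many of its peaks were weak. In the bin between levels of 4.70 and 5.23, 15.9% of promoter peaks within 1 kb and 9.63% of distal peaks opened. In the strongest bin the shares were 11.8% and 6.19%. Introns opened at 13.6% of 44 peaks and 11.1% of 36 peaks in these bins, nearer to the promoters than the distal peaks were. Between levels of 3.56 and 3.78 introns opened at 7.43% and promoters at 7.19%, and between 3.78 and 4.01 at 6.06% and 10.3%. The promoter share was thus the largest in both of the strongest bins, by little over introns. These differences were not tested because neighbouring peaks are not independent.

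**Figure D2:**
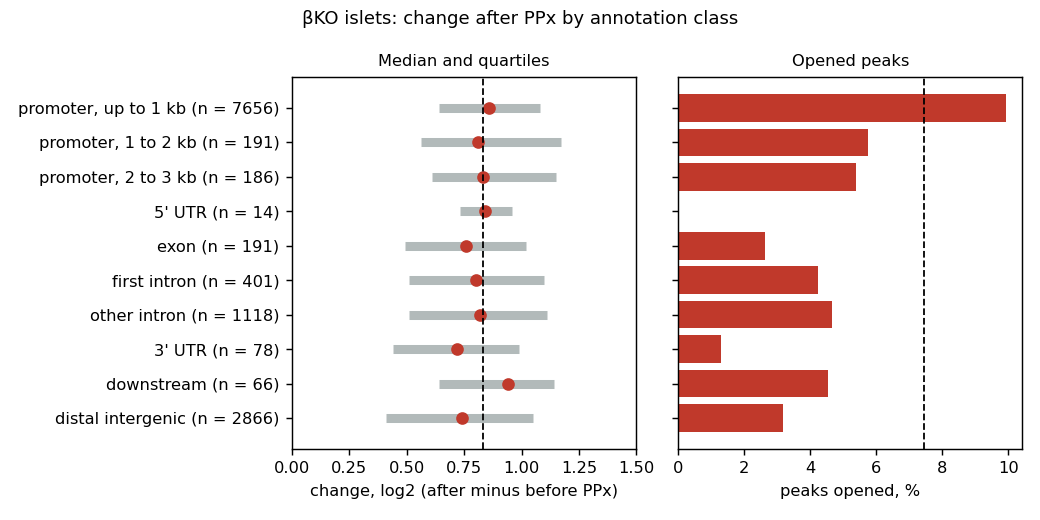
Left, median change (red point, log2, after minus before PPx) with quartiles (grey bar) of βKO peaks in each annotation class, and right, the percentage of peaks opened. The dashed lines give the values over all 12767 peaks, 0.83 and 7.44%; promoters within 1 kb stand highest for opened peaks, while the medians of the classes lie close together.

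The distance to a start gave the same order. On the chromosomes with RefSeq starts in the table used here, 12313 of the peaks were placed. The median change was 0.87 within 100 bp of a listed start and 0.71 beyond 200 kb. That set lacks some starts on these chromosomes, so distances can be too long. A Csmd3 peak annotated within 1 kb of a start was placed 401739 bp from the nearest listed one. The peaks beyond 200 kb, and those with no start inside, can therefore include peaks near an unlisted start. Peaks with RefSeq starts on both strands inside numbered 885 and opened at 14.0%, with a median change of 0.88. Peaks with starts on 1 strand opened at 9.62% of 4677, and peaks with no start inside at 5.13% of 6751. Their median mean levels ran in the same order, at 4.37, 4.09 and 3.52. By chromosome the autosomes had medians between 0.80 and 0.86, and the 466 peaks of the X chromosome had 0.91. The 75 peaks of the Y chromosome had 0.34, the value of the lowest listed level. As 64 of them stood at that level, this median does not measure a change on the Y chromosome.

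The promoter DNA of opened and other peaks was nearly alike. The windows ran from 250 bases before to 50 bases after the RefSeq start, for 574 opened peaks and 4988 other peaks with a start inside, beside all 32817 windows. Median GC content was 61.7% in opened peaks, 62.0% in the others and 52.7% in all windows. The ETS letters CCGGAAG were present in 22.8% of opened windows, 19.4% of the others and 8.86% of all windows. The SP/KLF letters GGGCGG were present in 69.5%, 70.7% and 35.6%, and CCAAT in 45.5%, 44.9% and 37.4%. The remaining searches were rarer, each on both strands. In the same order, E2F (TTTCCCGC) gave 1.92%, 2.31% and 1.07%, NRF1 (CGCATGCG) 4.18%, 4.59% and 1.86%, and YY1 (AAGATGGC) 4.70%, 4.41% and 2.74%. The CRE (TGACGTCA) gave 3.31%, 4.05% and 1.79%, AP-1 (TGANTCA) 3.83%, 3.99% and 7.81%, the E-box (CACGTG) 8.36%, 10.4% and 7.15%, and the TATA box (TATAAA) 6.10%, 5.71% and 13.6%. Among peaks of at least the median level of opened peaks, the ETS shares were 19.9% in opened and 20.3% in other windows. Peaks in promoters therefore differed from all promoters, and opened peaks did not differ from other peaks by more than a few percentage points in any of the 10 searches.

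The peaks with the smallest FDR, predicted genes left out, were mostly promoters. Nedd8, a ubiquitin-like protein that switches on cullin ligases, was at 4.44 after PPx, against 1.75 before PPx. Its peak at chr14:55671868-55672468 also holds the start of Gmpr2, so the 2 genes cannot be told apart. The same limit holds for the peaks named below at Skp2, Smc1a, Mrpl46, Edem1, Pdpk1, Gsk3b and Ezh2, each of which holds 2 RefSeq starts on opposite strands. Morn2 was at 4.96 after PPx, against 2.94 before PPx, in a peak shared with the start of Dhx57. A distal peak annotated to Csnk1a1, casein kinase 1 alpha, was at 4.20 after PPx, against 1.41 before PPx. It was called in 3 libraries after PPx and in 0 before PPx in the authors' deposited table, and a further distal peak of the gene opened with a change of 1.93. Champ1, a protein of chromosome alignment, was at 4.72 after PPx, against 2.35 before PPx. The FDR was 0.0077 at Nedd8, Morn2 and Csnk1a1 and 0.0114 at Champ1 in the authors' deposited table. The Nedd8 change of 2.69 ± 0.57 (SE) corresponds to 6.45-fold, and that of Morn2, 2.02 ± 0.42 (SE), to 4.06-fold.

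Outside promoters, the strongest opened peaks with the largest gains were intronic or distal. The adenylate kinase gene Ak5 had a peak in intron 10 of 13 at 5.26 after PPx, against 3.74 before PPx. Hepacam2, a cell adhesion gene, had one in intron 4 of 9 at 5.34 after PPx, against 3.73 before PPx. The centriole gene Poc1b, in intron 2, was at 4.98 after PPx, against 3.27 before PPx. Gch1, whose product begins the synthesis of the cofactor tetrahydrobiopterin, had a distal peak that was at 5.12 after PPx, against 3.49 before PPx. A distal peak of Ccn6 and an intron of Immp1l, a subunit of a mitochondrial inner membrane peptidase, had changes of 1.52 and 1.51. The FDR of these 6 peaks lay between 0.0231 at Poc1b and 0.0315 at Hepacam2 in the authors' deposited table.

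**Figure D3:**
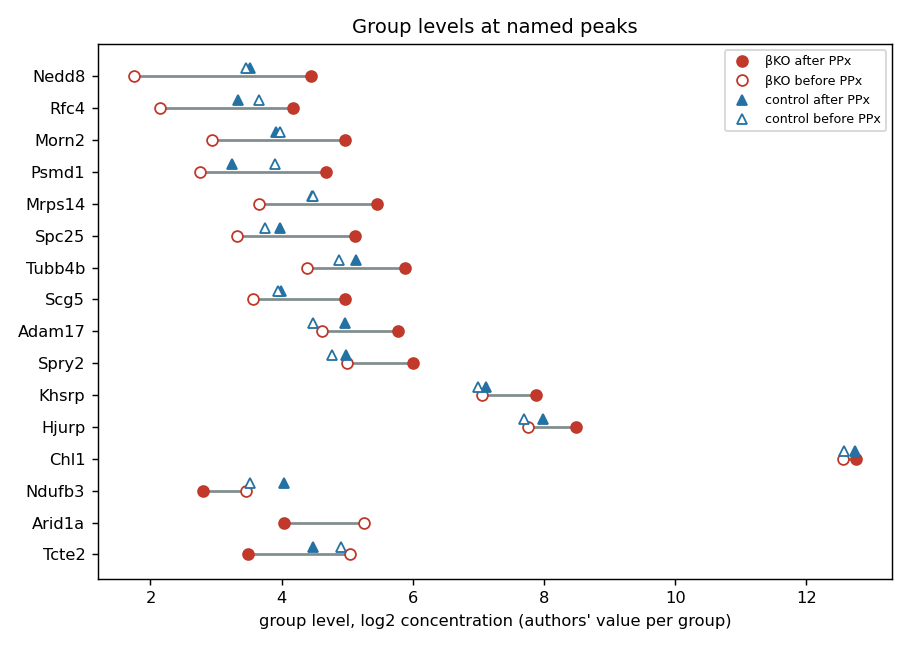
Group levels (x axis, log2 concentration, 1 value per group from the authors) at 16 named peaks, for βKO islets after and before PPx (red, filled and open circles) and for overlapping control peaks (blue triangles). From Nedd8 to Hjurp the βKO level after PPx is the highest of those plotted, while Chl1 barely moves and Ndufb3, Arid1a and Tcte2 stand lower after PPx.

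In EGF receptor signalling, which drives β cell division in several settings, 29 of 46 listed genes had a peak. Of these 29, 3 opened, or 10.3% beside 9.57% of all genes with a peak. A gene counts as opened where any of its peaks opened, which favours genes with several peaks. By peak, 3 of 48 opened, or 6.25% beside 7.44% of all peaks. The 48 peaks had a median change of 0.92, beside 0.83 for all peaks, and none was lower after PPx. Adam17, the protease that frees several EGF-family ligands, was at 5.78 after PPx, against 4.61 before PPx at its promoter. Spry2 and Dusp4 act as feedback inhibitors of the Ras and MAPK arm. The Spry2 promoter was at 6.00 after PPx, against 4.99 before PPx, and a distal Dusp4 peak at 4.95 after PPx, against 3.65 before PPx. FDR values were 0.0426 at Adam17, 0.0485 at Spry2 and 0.0365 at Dusp4 in the authors' deposited table. No ligand opened among 6 with a peak: the promoter of Areg, amphiregulin, was at 4.62 after PPx, against 3.58 before PPx, that of Btc, betacellulin, at 5.19 after PPx, against 4.51 before PPx, and that of Hbegf at 3.61 after PPx, against 3.32 before PPx. No receptor opened either, and the Egfr promoter was at 4.44 after PPx, against 3.72 before PPx. Among adaptors, Sos1, a Ras exchange factor, stood just outside the threshold at 5.36 after PPx, against 4.22 before PPx, the FDR being 0.0507 per the authors' deposited table.

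Genes of proliferation gained about as much as all peaks. In the cell cycle list 2 of 26 genes with a peak opened, or 7.7% beside 9.57% of all genes, with a median change of 0.82 over 40 peaks. These were Skp2, the ubiquitin ligase subunit that removes the CDK inhibitor p27, at 6.11 after PPx, against 5.03 before PPx, and Cdkn2d, a CDK inhibitor, at 6.08 after PPx, against 4.92 before PPx. No cyclin or CDK opened. The promoter of Ccna2, cyclin A, was at 5.89 after PPx, against 5.17 before PPx, and that of Cdk4, a G1 kinase that β cells need to divide, at 4.59 after PPx, against 3.83 before PPx. In DNA replication 3 of 21 genes opened, or 14.3%, with a median of 0.98. Rfc4 and Mcm10, given above, were among them. Mcm4, a subunit of the replicative helicase, was at 6.42 after PPx, against 5.53 before PPx, the FDR being 0.0521 per the authors' deposited table. In mitosis 3 of 24 genes opened, or 12.5%, with a median of 0.84 over 29 peaks. Besides Spc25 these were the cohesin genes Smc1a, at 4.63 after PPx, against 3.01 before PPx, and Stag1, at 5.10 after PPx, against 3.96 before PPx.

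The mitochondrial ribosome list, chosen because earlier work on these data had Mrps14 among its largest gains, had 7 opened genes of 33 with a peak, or 21.2%, beside 9.57% of all genes. This was the largest count among the lists, though not the largest share, which was 25% in insulin, PI3K and mTOR signalling and 21.4% in the TGF-β list among lists of at least 14 such genes. Its 42 peaks had a median change of 1.00 and ran between −0.08 and 2.46. The opened genes encode subunits of the ribosome that translates mitochondrial messages: Mrpl1, Mrpl13, Mrpl46, Mrps14, Mrps28, Mrps31 and Mrps36. The promoter of Mrpl46 was at 5.00 after PPx, against 3.57 before PPx, and that of Mrps36 at 4.36 after PPx, against 2.80 before PPx. The promoter of Mrps31 was at 4.64 after PPx, against 3.18 before PPx. At Mrps28 a promoter and a distal peak both opened, with changes of 1.14 and 1.21. The promoter with the lowest change, Mrpl16, was at 3.23 after PPx, against 3.31 before PPx. Since Mrps14 shaped the choice of the list, its count is a description.

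Genes of the secretory β cell opened at a few granule genes. Of 25 insulin secretion genes with a peak 4 opened, or 16.0% beside 9.57% of all genes, with a median change of 0.93 over 44 peaks. Scg5, a chaperone of prohormone convertase 2, was at 4.97 after PPx, against 3.57 before PPx at its promoter. Chgb, the granule protein chromogranin B, was at 4.24 after PPx, against 2.78 before PPx. Cpe, which trims proinsulin, opened in intron 1, at 6.07 after PPx, against 4.98 before PPx. Slc30a8, the granule zinc transporter, opened in intron 2, at 4.43 after PPx, against 2.88 before PPx. This peak was called in 2 libraries after PPx and in 0 before PPx in the authors' deposited table, and the other Slc30a8 peaks did not open. The FDR of the 4 opened peaks of the list lay between 0.0351 at Scg5 and 0.0484 at Slc30a8 in the authors' deposited table. The Ins1 promoter was at 5.64 after PPx, against 4.81 before PPx, a change at the general median, and an insulin promoter is also part of the transgene of every mouse. Of 8 β cell transcription factors with a peak none opened, with a median of 0.83. The Pax6 promoter, the strongest, was at 6.43 after PPx, against 5.84 before PPx, the Nkx6-1 promoter at 4.84 after PPx, against 3.86 before PPx, and the Mafa promoter at 3.81 after PPx, against 3.14 before PPx. No disallowed gene, kept silent in normal β cells, opened among 4 with a peak. Lmo4, the strongest of them, was at 4.86 after PPx, against 4.26 before PPx. The 4 peaks had a median of 1.15, while either subset of stronger peaks held Lmo4 alone, with a change of 0.60.

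In the unfolded protein response, which keeps the folding load of the endoplasmic reticulum in check, 3 of 18 genes opened, or 16.7% beside 9.57% of all genes, with a median change of 0.99. Hspa5, the chaperone BiP, was at 5.78 after PPx, against 4.70 before PPx, and Edem1, a factor of protein disposal, at 6.52 after PPx, against 5.46 before PPx. Eif2ak3, the PERK kinase, opened at an intron and at a distal peak, the intron 2 peak being at 4.72 after PPx, against 3.20 before PPx. In insulin, PI3K and mTOR signalling 5 of 20 genes opened, or 25%, with a median of 0.95. The promoter of Rheb, the GTPase that switches on mTOR, was at 5.95 after PPx, against 4.67 before PPx, the FDR being 0.0289 per the authors' deposited table. The promoters of the kinases Akt2, Pdpk1, Gsk3a and Gsk3b opened too, with changes of 1.48, 1.30, 1.06 and 0.94. Among immediate early and cAMP genes 2 of 26 opened, or 7.7%, with a median of 0.88. Creb1, the cAMP-responsive factor, opened at intron 8, at 4.01 after PPx, against 2.08 before PPx, and at its promoter, at 5.70 after PPx, against 4.59 before PPx. The antiproliferative gene Btg2 opened at 2 peaks, and none of the 11 peaks of AP-1 factors opened.

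Other lists lay below the general median. The TGF-β, activin and BMP list had a median change of 0.58 over 17 peaks, and 3 of 14 genes opened, or 21.4% beside 9.57% of all genes. Bmpr2, a BMP receptor, was at 3.92 after PPx, against 2.16 before PPx, Acvr1c, an activin receptor, at 6.12 after PPx, against 4.93 before PPx in intron 2, and Id2, a BMP target, at 5.61 after PPx, against 4.49 before PPx. Polycomb genes, which silence developmental loci and the Cdkn2a locus, had a median of 0.52, and none of 13 opened. Their strongest promoter, of the methyltransferase Ezh2, was at 5.49 after PPx, against 4.87 before PPx. Of 15 SWI/SNF genes with a peak 1 opened, or 6.7%, namely Arid1b, the subunit closest to Arid1a. Its peak in intron 8 was at 4.10 after PPx, against 2.38 before PPx, the FDR being 0.0353 per the authors' deposited table. That peak was called in 3 libraries after PPx and in 0 before PPx. The other Arid1b peaks did not open, with an FDR of 0.192 and 0.539 in the authors' deposited table. The list's median was 0.68. The ATPase genes Smarca4, at 4.16 after PPx, against 3.49 before PPx, and Smarca2, at 4.53 after PPx, against 3.75 before PPx, did not pass. In the spliceosome list 3 of 19 genes opened, or 15.8%, Prpf19, Snrpg and Srsf5, with a median of 0.73. That median changed sides in stronger peaks, at 0.90 beside 0.84 for all peaks of at least the median level, and at 0.82 beside 0.78 for all peaks called in at least 2 libraries of each group. By peak the opened shares, beside 7.44% of all peaks, were 21.7% in PI3K and mTOR, 19.0% in the mitochondrial ribosome and 17.6% in TGF-β. They were 16.7% in the unfolded protein response, 15.8% in the spliceosome, 14.3% in DNA replication and 10.3% in mitosis. Insulin secretion had 9.09%, immediate early and cAMP genes 8.7%, SWI/SNF 5.56% and the cell cycle 5.0%. In several lists most peaks were promoters within 1 kb, with 21 of 23 in PI3K and mTOR and 33 of 42 in the mitochondrial ribosome. In insulin secretion they were 16 of 44. Such promoters opened at 9.93% over all levels and at 13.2% between levels of 4.01 and 4.32. The 7.44% of all peaks is thus not matched to the lists for class or level. The medians and shares describe the lists, and no test sets a list apart from the other peaks.

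**Figure D4:**
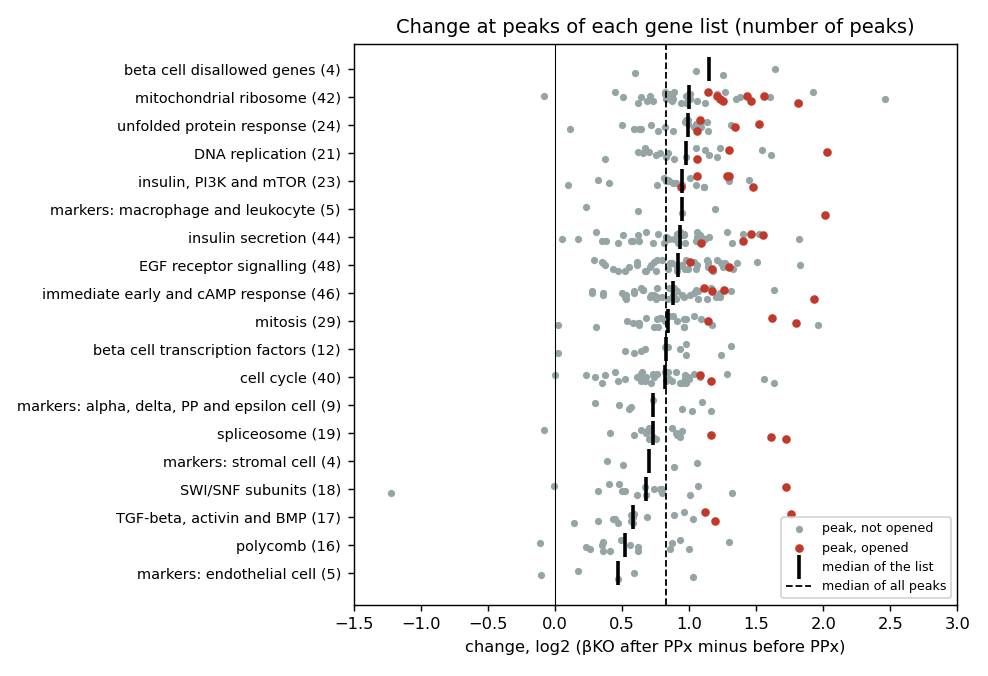
Change at each peak of the gene lists with at least 4 peaks (x axis, log2, βKO after minus before PPx; points are peaks, red where opened), with the median of each list (black bar) and of all peaks (dashed line). The medians run between 0.47 for 5 peaks of endothelial markers (1.03 at the only promoter peak) and 1.15 for 4 peaks of disallowed genes (0.60 at Lmo4, the only stronger peak). Opened peaks appear on both sides of the order.

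Markers of other cells had few peaks. Acinar markers had a peak at 1 of 15 genes, in an intron of Nr5a2, at 3.79 after PPx, against 2.63 before PPx, and the digestive enzyme genes of the list had none. Duct markers had peaks at 2 of 10 genes, with a median of 0.76, the strongest at Ambp. Markers of α, δ, PP and ε cells had 9 peaks at 6 of 14 genes, with a median of 0.73. Their strongest peak, near Etv1, was at 6.54 after PPx, against 5.97 before PPx, and the Gcg promoter of glucagon was at 3.70 after PPx, against 3.40 before PPx. Endothelial markers had a median of 0.47 over 5 peaks. Their strongest and only promoter peak, that of Esam, had a change of 1.03, at 5.09 after PPx, against 4.06 before PPx. Stromal markers had a median of 0.70 over 4 peaks, the strongest near Dcn. The 2 peaks of Schwann cell markers, at Cdh19 and Erbb3, had a median of 1.16, and the Erbb3 peak, the only promoter, had 0.52. Of these lists only that of macrophages and leukocytes held an opened peak, with a median of 0.95 over 5 peaks. It was a distal peak of Csf1r, the macrophage growth factor receptor, at 4.03 after PPx, against 2.02 before PPx. This Csf1r peak was called in 2 libraries after PPx and in 0 before PPx in the authors' deposited table. It was thus listed only through libraries after PPx. The peaks of markers ran between levels of 2.73 for Cdh5 and 6.54 for Etv1 after PPx. The part of cell composition in the general gain was not tested.

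The peaks with the lowest changes among those of at least median level were not called. Besides Arid1a, a promoter peak of Tcte2 was at 3.48 after PPx, against 5.04 before PPx, the FDR being 0.174 per the authors' deposited table. Distal peaks of Vmn1r-ps2, Pisd-ps1 and Mir6356 and an intron of Atrnl1 had changes of −0.74, −0.59, −0.51 and −0.47. Of the 6 strongest named peaks, the top pair barely moved. The exonic peak of Chl1 was at 12.76 after PPx, against 12.56 before PPx, and a distal peak of Pak3 at 11.89 after PPx, against 11.84 before PPx. Distal peaks of Dpy19l2 and Ly6c2 had changes of 0.40 and 0.28, while the promoters of Hjurp, a chaperone of centromeric histone, and Khsrp, a splicing and decay factor, had 0.74 and 0.82. Levels as high as that of Chl1 were listed alike in control islets, at 12.74 after PPx and 12.57 before PPx. Within a gene, peaks could differ widely. Among 212 genes with 4 or more peaks, the range was widest at Gbe1, between −0.14 and 2.92 over 5 peaks, at Negr1, between 0.36 and 3.29 over 4, and at Csmd3, between −1.35 and 1.56 over 6. None of these peaks opened, and most were weak.

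Control islets had smaller changes after PPx at most peaks. In their own comparison of times the median change was 0.16 over 8070 peaks, and 0 opened, the smallest FDR being 0.619 in the authors' deposited table. Of the βKO peaks, 7535 overlapped a control peak, and their median change was 0.83 in βKO islets and 0.16 in control islets. The change was larger in βKO islets at 92.7% of the 7533 that could be tested, with a median difference of 0.65. Relative to the median of each table, 0% of peaks changed more and 0% less in βKO than in control islets in the approximate normal test with Benjamini-Hochberg adjustment. The smallest adjusted p was 1, at unadjusted p under 0.05 there were 52 higher and 61 lower peaks, and the median SE of a difference was 0.58. These are again a smaller share of the tested peaks than 0.05, so this test was conservative too. Without centring on the medians, 0 peaks differed by that test, with a smallest adjusted p of 0.161 and 1013 higher peaks at an unadjusted p under 0.05. Whether the scales of the 2 tables are comparable is not stated, so the difference in medians may hold a difference of scale, which was not tested.

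The 780 opened βKO peaks with a control counterpart had a median change of 1.32 in βKO islets and 0.16 in control islets, where 568 were higher after PPx. They were selected by their βKO change, so this gap is a description and no test of the genotypes. The other 170 opened peaks had no control counterpart. Of the 6 named peaks with the smallest p for the difference, 5 had the larger change in βKO islets and 1 the smaller. The promoter of Psmd1, a proteasome subunit, was at 4.68 after PPx and 2.76 before PPx in βKO islets, and at 3.24 after PPx and 3.90 before PPx in control islets. Relative to the medians the βKO change exceeded the control change by 1.91 ± 0.62 (SE), with an unadjusted p of 0.00194 in the approximate test. Nedd8, with its large βKO gain, was at 3.51 after PPx and 3.46 before PPx in control islets, a relative difference of 1.97 ± 0.72 (SE). Dyrk3, a kinase gene, had a relative difference of 1.91. Ndufb3, a subunit of respiratory complex I, ran the other way at a distal peak. It was at 2.80 after PPx and 3.46 before PPx in βKO islets, and at 4.04 after PPx and 3.52 before PPx in control islets. All of these had an adjusted p of 1 in the approximate test.

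**Figure D5:**
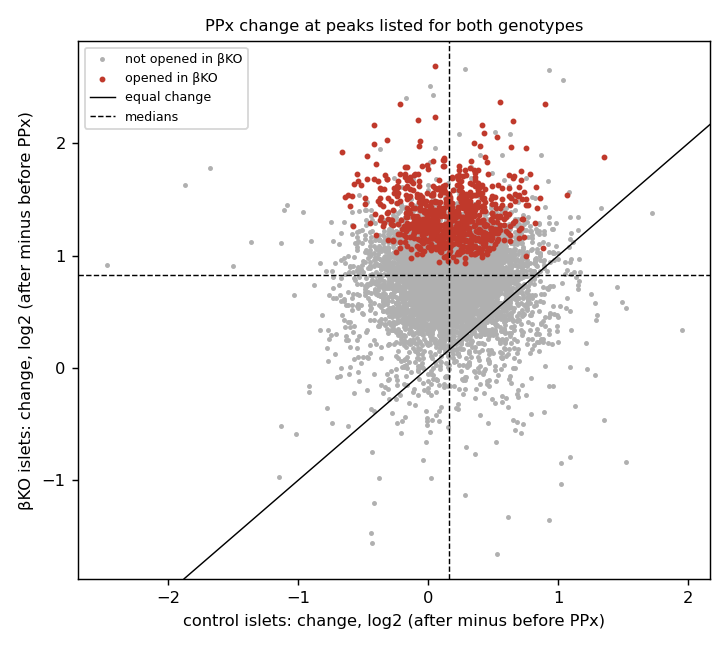
Change after PPx at overlapping peaks in βKO islets (y axis, log2, after minus before PPx) and control islets (x axis, log2), with peaks opened in βKO islets in red. The medians (dashed) cross at 0.83 for βKO and 0.16 for control islets, and 92.7% of the peaks lie above the line of equal change.

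The promoters printed above were picked for their opening in βKO islets, so their control values are given as a description. Mrps14 was at 4.46 after PPx and 4.47 before PPx in control islets, and Tubb4b at 5.13 after PPx and 4.88 before PPx. Spc25 was at 3.98 after PPx and 3.74 before PPx in control islets, Rfc4 at 3.34 after PPx and 3.66 before PPx, and Mcm10 at 4.20 after PPx and 3.67 before PPx. The βKO changes at Mrps14, Tubb4b, Spc25, Rfc4 and Mcm10 were 1.81, 1.49, 1.80, 2.03 and 1.30. The βKO change exceeded the control change, relative to the medians, by 1.15 at Mrps14, 0.57 at Tubb4b, 0.89 at Spc25, 1.68 at Rfc4 and 0.10 at Mcm10, none with an adjusted p below 1 in the approximate test. Among opened peaks of the lists the difference varied. It was 0.01 at Adam17, 0.12 at Spry2, 0.11 at Skp2, 0.32 at Rheb and −0.02 at Edem1. Larger values were 1.38 at Snrpg, 1.15 at Mrps36, 0.76 at Arid1b and 0.71 at Pdpk1. The SE was 0.49 at Adam17 and 0.74 at Snrpg. Before centring, the Adam17 change was 1.17 in βKO islets and 0.49 in control islets.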

How the data were processed

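ATAC-seq libraries were each made from 40000 islet cells, with transposition at 37 °C for 30 min, and read as single ends of 75 bp per the labels' protocols. Per the submitters' processing notes, the tools were BWA, ChIPseeker, DiffBind, MACS and cutadapt, and the build was mm10 (GRCm38). Their versions and parameters, the normalisation, the covariates of the test and whether reads were shifted to the Tn5 cut were not given in the sources used here. The 601 bp peaks carry, per the file headers, a log2 concentration for each group, a log2 fold between them, a p-value and an FDR. The deposited tables also give the number of libraries of each group in which a peak was called, taken here as counts of libraries and not of reads.

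The deposited table had 17355 rows, of which 4588 repeated a position and were dropped. The change was the difference of the group levels. Its SE was the change divided by the normal deviate of the authors' p-value. Where that p was 0.5 or more or the change under 0.1, the median SE of 20 bins of level was used. The approximate normal tests rest on these errors and on 12767 βKO peaks or 7533 matched peaks, with an overlap of at least 1 bp. Among the matched peaks 2 control peaks were left out, because their p of 0.5 or more stood beside a change of over 2 such errors. The tests were tried on simulated data whose noise was drawn from these same derived errors. That trial could not show whether the errors are too wide for the real peaks. RefSeq starts and promoter sequences (GRCm38.p6, the same coordinates as mm10) cover the chromosomes of 12313 peaks, and the remaining peaks were not analysed here for starts or motifs. Some starts are missing on the covered chromosomes too. Promoters are named by the authors' annotation, and the nearest RefSeq start used here can lie far from them. It lay 5136 bp away at Pax6, 31170 bp at Champ1, 21723 bp at Esam and 17958 bp at Erbb3. Python 3.11.15 with pandas 2.3.3, numpy 2.4.6, scipy 1.17.1 and matplotlib 3.10.9 was used.

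The peaks, the 22 gene lists and the tests were chosen with earlier results of these data known. With predicted genes left out, named peaks were the 6 with the smallest FDR, the 6 opened peaks outside promoters with the largest change and at least the median level of opened peaks, the 6 lowest changes among peaks of at least the median level, and the 6 strongest. Further named peaks were up to 4 opened genes of each list (or its strongest peak), the 6 smallest p for the difference from control, and the 3 genes of at least 4 peaks with the widest range. Other list members with values were named after these were seen, and a few peaks that the rule takes are not reported here. The design text counts as many mice as there are libraries in each group, and the labels do not tie a library to a mouse.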

Additional observations from a re-analysis of the deposited data

How the results depend on the processing

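The number of opened peaks, 950, depends on the threshold and the adjustment. It was 5 at an FDR under 0.01 and 3941 at an FDR under 0.1 in the authors' deposited table, 573 with Benjamini-Hochberg adjustment over all listed peaks, and 516 among peaks called in at least 2 libraries of each group. It was 765 among peaks of at least the median level and 1179 over all rows as deposited. Closed peaks numbered 0 under each of these settings except an FDR under 0.1, which gave 1, the Arid1a exon, in the authors' deposited table. Above the table median the approximate test called 0 peaks, against 573 with the change tested against 0, and 0 under each of the other centres tried, including the change at the lowest level, which was added after seeing the data. Below the median, and against control islets, each alternative also gave 0. The median change of 0.83 was 0.78 among peaks called in at least 2 libraries of each group, 0.84 at peaks of at least the median level, 0.86 at promoters and 0.60 on the scale of the genotype tables, the last also added after seeing the data. Of the 88 named peaks, 51 were opened. Under the adjustment over all listed peaks 71 of the 88 kept their side of the threshold. Of the 51 opened ones 15 lost it, and 2 of the others gained it. Relative to the table median all 51 lost it. The medians of small lists moved most, where a subset left 1 peak. For disallowed genes both subsets of stronger peaks held Lmo4 alone, at 0.60. With promoters only, endothelial markers were left with Esam alone, at 1.03, and Schwann cell markers with Erbb3 alone, at 0.52. No library was left out and no paired analysis was possible because the tables hold group values and no library carries a number shared between groups. No peak in the 2 lowest of 10 bins of level opened, where the median SE was 0.70 and 0.61, and depth per library is unknown. Weak peaks were also often given an FDR of 1 whatever their p, so they could not open.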
